A study of Mus musculus with 25 samples.

Results

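The genes described are 9 that move and store calcium in the muscle fiber: the pump genes *Atp2a1* (SERCA1) and *Atp2a2* (SERCA2), the pump inhibitors *Sln* (sarcolipin) and *Pln* (phospholamban), the calsequestrins *Casq1* and *Casq2*, the release channel *Ryr1*, the voltage sensor *Cacna1s* and the cytosolic buffer *Pvalb* (parvalbumin). They were taken by symbol from a table of 52636 genes, and all 9 passed the filter on low counts. The set was chosen by function, with the log2 fold changes for exercise and genotype in these libraries in view and no threshold on them, so those values are given for the members as a description, and counts of calls stand only beside the share over all genes. The sex of the mouse, which the selection did not use, was tested.

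RNA was sequenced from the *soleus*, a calf muscle of mixed slow and fast fibers, of 25 male and female mice on a C57BL/6 background, 12 weeks old, with 1 library per mouse. WT mice carried *Dnmt3a* alleles with loxP sites around exon 19, and mD3AKO mice carried the same alleles plus mCK-Cre, a Cre recombinase under the muscle creatine kinase promoter, so the floxed alleles are shared by all groups and only muscle fibers and heart were targeted. Exercised mice ran for 30 min on a treadmill and were sampled 60 min afterwards, and rested mice spent 30 min in a sham treadmill arena. The groups were WT at rest (n = 5, 3 males and 2 females), WT after exercise (n = 7, 3 males and 4 females), mD3AKO at rest (n = 7, 4 males and 3 females) and mD3AKO after exercise (n = 6, 3 males and 3 females).

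In a resting fiber nearly all releasable calcium lies in the sarcoplasmic reticulum, bound to calsequestrin. An action potential moves the voltage sensor in the transverse tubule, which opens the ryanodine receptor beside it, and calcium then reaches troponin on the thin filament. SERCA pumps return the calcium to the store at the cost of ATP, sarcolipin and phospholamban slow or uncouple the pump, and parvalbumin takes up calcium in fast fibers so that they relax quickly. SERCA1 is the pump of fast fibers and SERCA2 that of slow fibers and of the heart, where calsequestrin 2 is also found.

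In the count table (mm10) the pump genes lie at chr7:126445858-126463108 on the minus strand (*Atp2a1*) and chr5:122453513-122502225 on the minus strand (*Atp2a2*), and the inhibitors at chr9:53850164-53854560 on the plus strand (*Sln*) and chr10:53337667-53345987 on the plus strand (*Pln*). *Casq1* lies at chr1:172209894-172219868 (minus), *Casq2* at chr3:102086415-102146514 (plus), *Ryr1* at chr7:29003344-29125179 (minus), *Cacna1s* at chr1:136052750-136119822 (plus) and *Pvalb* at chr15:78191114-78206400 (minus). Counts were taken over the exons of each gene.

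The pump inhibitors are encoded by very short reading frames, which are shown here because *Sln* is 1 of the 2 members called for sex below and *Pln* the one with the fewest counts. The frame of *Sln* runs over 96 bases at chr9:53853473-53853568 on the plus strand of mm10 and holds 31 codons before its stop. The frame of *Pln* runs over 159 bases at chr10:53343864-53344022 on the plus strand and holds 52 codons, and it is the same in the 6 annotated coding transcripts of that gene. Both are written 5′ to 3′ from GENCODE release M21 transcripts, with the start and stop codons in capitals.
Sln: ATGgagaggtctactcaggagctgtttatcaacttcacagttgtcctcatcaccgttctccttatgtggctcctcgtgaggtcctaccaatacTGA
Pln: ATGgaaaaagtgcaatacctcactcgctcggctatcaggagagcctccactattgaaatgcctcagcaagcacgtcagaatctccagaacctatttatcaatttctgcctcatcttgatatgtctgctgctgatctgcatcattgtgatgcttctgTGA

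The calsequestrin promoters are shown because over all 25 mice these 2 genes followed the ratio of fast to slow myosin RNA in opposite directions. As given below, neither relation passed within a sex, and that of *Casq1* did not pass without mice 2 and 3. Each is the 250 bases before and the 50 bases after the gene start from RefSeq (GRCm38.p6), *Casq1* at chr1:172219846-172220145 on the minus strand and *Casq2* at chr3:102086165-102086464 on the plus strand, written 5′ to 3′ along the gene. Capitals mark each E-box, CANNTG, the motif that muscle regulatory factors of the MyoD family bind.
Casq1: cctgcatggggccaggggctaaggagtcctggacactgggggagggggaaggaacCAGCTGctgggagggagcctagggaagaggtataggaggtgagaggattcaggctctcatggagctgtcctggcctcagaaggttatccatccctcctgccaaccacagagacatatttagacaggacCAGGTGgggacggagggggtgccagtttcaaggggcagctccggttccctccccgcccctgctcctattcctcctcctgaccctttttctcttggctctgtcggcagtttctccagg
Casq2: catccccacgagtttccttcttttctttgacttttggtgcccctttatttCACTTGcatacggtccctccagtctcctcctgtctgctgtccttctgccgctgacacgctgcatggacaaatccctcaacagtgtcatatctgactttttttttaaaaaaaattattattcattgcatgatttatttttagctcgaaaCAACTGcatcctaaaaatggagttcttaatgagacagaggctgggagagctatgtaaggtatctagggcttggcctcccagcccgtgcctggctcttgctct
Each of the pair holds 2 E-boxes. RefSeq windows were matched for 7 of the 9 members, with 2 for *Pvalb*, and not for *Sln* and *Atp2a2*. Searched on both strands, an E-box stood in 6 of these 8 windows and in 72.3% of all 32841 windows of that length, TATAAA in 1 (that of *Pln*) against 13.6%, a MEF2 site in 2 (those of *Casq2* and 1 of *Pvalb*) against 3.19%, and a CArG box in 0 against 1.63%. A narrower MEF2 form, with its outer letters fixed, was searched first and stood in 0 windows against 0.557%; the wider consensus was taken up after that result was seen. MEF2, CArG and TATAAA matches may overlap each other, and a match is only a run of letters.

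Libraries held 22671457 to 37431801 counts in genes (median 32189360). CPM are counts in 1000000 after TMM scaling, and 1 CPM stood for 14.3 counts in mouse 15 and for 26.4 to 39.8 in the others. The 9 members took 1.98% of the counts of all libraries together, and between 1.18% and 2.24% in single libraries. *Dnmt3a* lay at 34.5 to 53.9 CPM in mD3AKO mice and at 93.4 to 131 CPM in WT mice, with no overlap. Mouse 15, an mD3AKO male at rest with the fewest counts, had 31.6% of its counts in mitochondrial ribosomal RNA, against 7.68% to 13.0% in the other 24. The tissue label was checked against the myosins: *Myh7* of slow fibers averaged 11942 CPM, and *Myh2*, *Myh1* and *Myh4* of fast fibers 10714, 5841 and 1454 CPM. Of the heart list, *Nppa* had 17 counts and *Myl7* 3 counts over all libraries, and the list summed to 13.5 to 28.5 CPM per mouse. In bulk RNA, fewer fibers of a type and less RNA per fiber cannot be told apart.

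Per kilobase of the length given for each gene in the count table, which is not that of a single transcript, the pumps led. *Atp2a1* stood at 1763 ± 228 CPM per kilobase (SD, n = 25), *Atp2a2* at 1186 ± 183, *Casq1* at 482 ± 48.7 and *Pvalb* at 369 ± 169. *Ryr1* (164 ± 22.5), *Casq2* (151 ± 31.1), *Cacna1s* (136 ± 14.7) and *Sln* (118 ± 54.0) came next, and *Pln* was last at 0.909 ± 0.344. On this scale *Atp2a1* exceeded *Atp2a2* in 24 of 25 mice and *Sln* exceeded *Pln* in 25 of 25. The order of the pumps rests on the lengths given in the count table, 3477 bases for *Atp2a1* and 6081 for *Atp2a2*: by CPM without length *Atp2a2* led (7214 against 6129 CPM), and *Atp2a1* was the higher in 5 of 25 mice. In the middle the order was not stable from mouse to mouse: *Ryr1* was above *Casq2* in 15, *Casq2* above *Cacna1s* in 13 and *Cacna1s* above *Sln* in 17. On the same scale the ratio of the fast to the slow pump was 1.51 ± 0.267, that of *Casq1* to *Casq2* 3.34 ± 0.822, and that of *Sln* to *Pln* 148 ± 90.9, ranging from 40.5 to 463. Sarcolipin mRNA was thus the main inhibitor transcript of the pair in every *soleus* here.

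**Figure D1:**
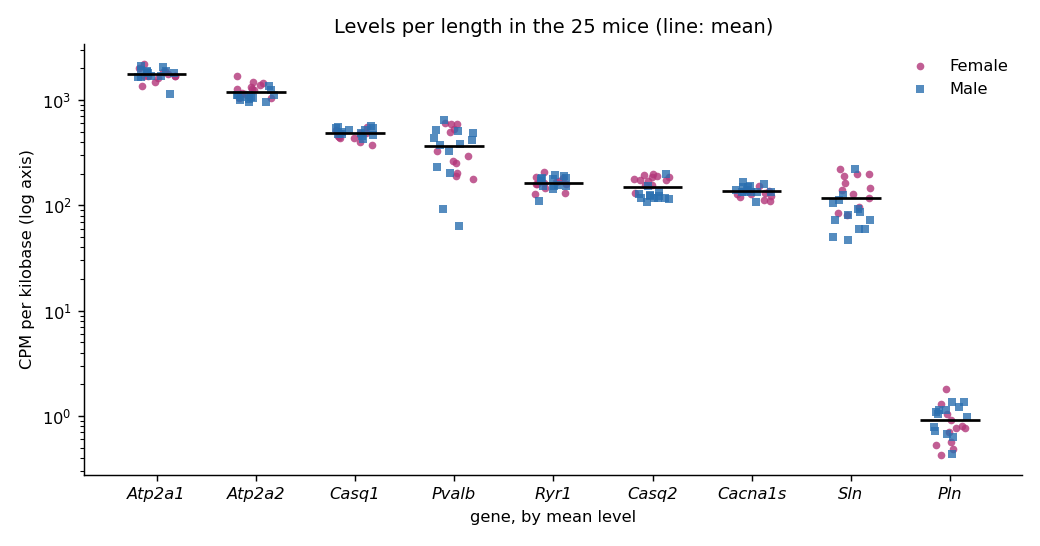
Level of each gene in CPM per kilobase (log axis) in the 25 mice, with females as circles, males as squares and the mean as a line. *Atp2a1* is highest at 1763 and *Pln* lowest at 0.909, and *Ryr1*, *Casq2*, *Cacna1s* and *Sln* overlap.

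None of the 9 members passed an adjusted p of 0.05 for exercise, for genotype or for their interaction with edgeR's quasi-likelihood test, where 10.4%, 0.269% and 0% of the 16340 tested genes did. At an unadjusted p under 0.05 there was 1 member for exercise (*Ryr1*), 1 for genotype (*Sln*) and 0 for the interaction, beside 21.3%, 6.23% and 2.47% of all tested genes. DESeq2 called 0 members in each, where it called 1921, 81 and 0 of the 16340 genes. At an unadjusted p under 0.05 it had 2, 1 and 0 members, beside 21.4%, 6% and 2.36% of all genes. Nothing is read from these counts, since the members were chosen with those contrasts known. The median log2 fold change over the members was 0.08 for exercise and -0.01 for genotype, beside -0.00088 and 0.0070 over all tested genes. The ranges of the members overlapped between rest and exercise in both genotypes, and between genotypes in both states. The share of all genes with overlapping ranges in these comparisons was not computed, so the overlap is a description only. Mice of a group were separate animals, so the SD below measures the spread between animals. The SE is the uncertainty of a fitted log2 difference.

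**Figure D2:**
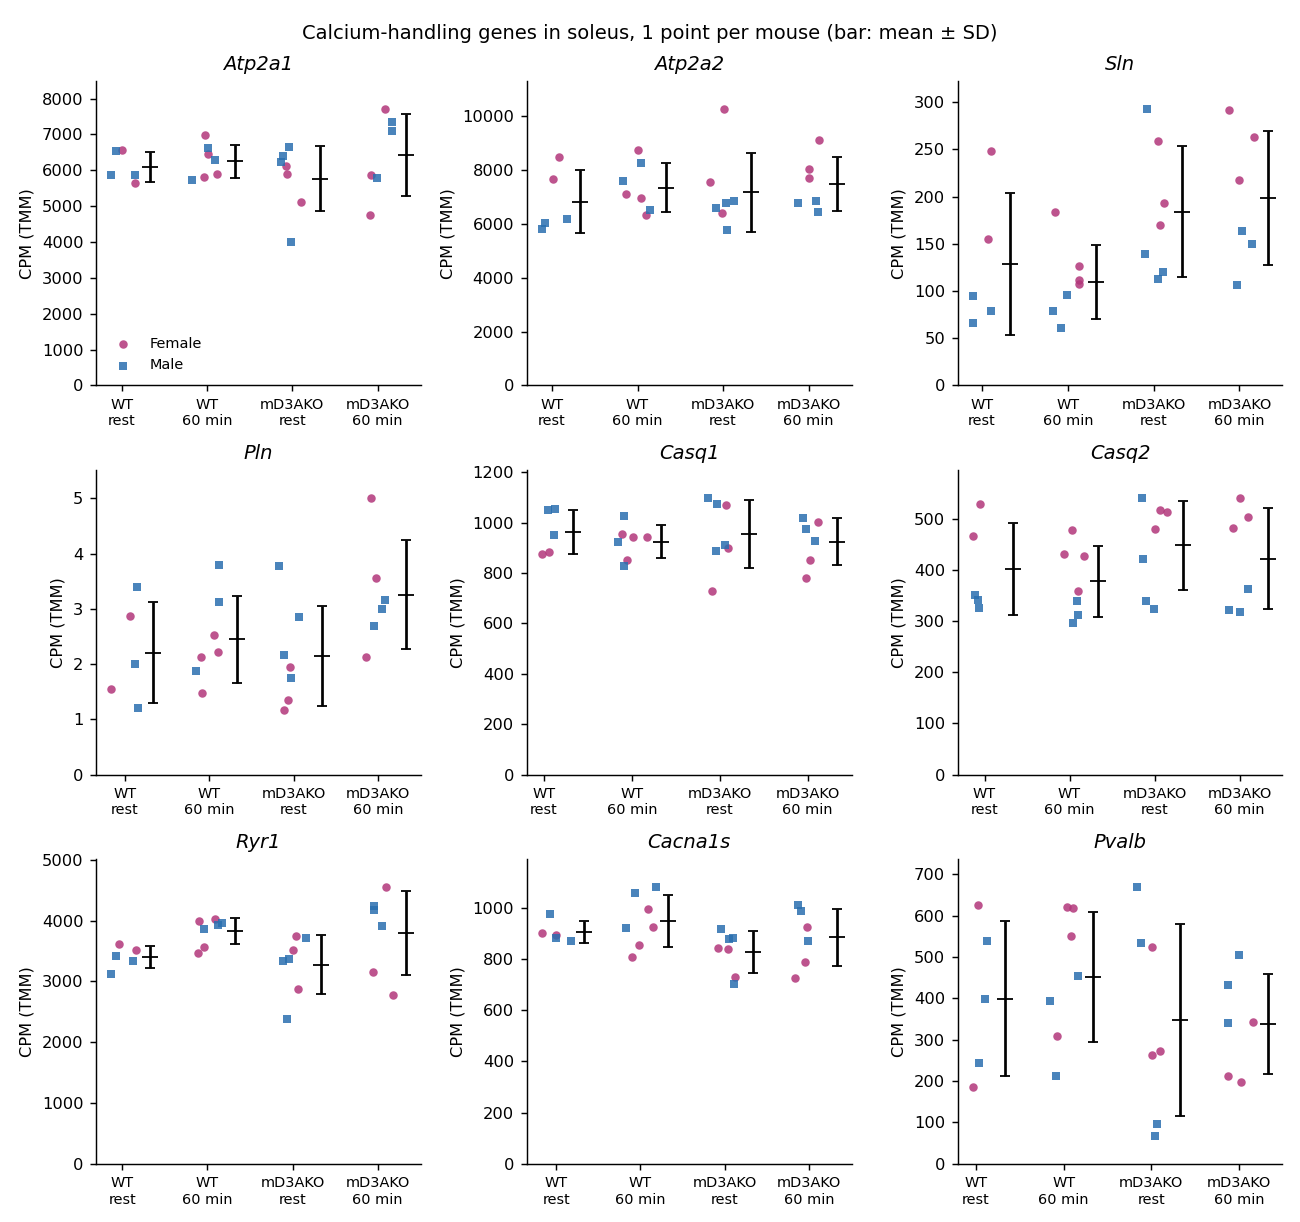
CPM of the 9 members in the 4 groups, 1 point per mouse, with females as circles, males as squares and the group mean ± SD as a bar. All groups of each gene overlap, and in the *Sln* and *Casq2* panels the circles lie mostly above the squares.

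The pump genes were near level across the groups. *Atp2a1* ranged from 5643 to 6563 CPM in WT mice at rest (median 5875), 5719 to 6977 in WT after exercise (median 6277), 3993 to 6638 in mD3AKO at rest (median 6128) and 4761 to 7717 in mD3AKO after exercise (median 6481). The lowest value was that of mouse 7, an mD3AKO male. The log2 difference of exercised over rested mice was 0.10 ± 0.084 (SE) and that of mD3AKO over WT -0.02 ± 0.084. *Atp2a2* ranged from 5790 to 8450 CPM (median 6163), 6310 to 8739 (median 7080), 5780 to 10257 (median 6759) and 6428 to 9111 (median 7253) in the same order of groups. Its log2 difference was 0.08 ± 0.093 for exercise and 0.05 ± 0.093 for genotype.

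Sarcolipin was the member with the largest genotype difference. In WT mice at rest *Sln* was 65.6, 78.9 and 95.2 CPM in the males and 155 and 249 CPM in the females. After exercise WT mice spanned 61.3 to 184 CPM (median 107), while mD3AKO mice spanned 113 to 293 CPM at rest (median 170) and 107 to 291 CPM after exercise (median 191). The mD3AKO values overlapped the upper part of the WT range and reached above it. In each of the 4 groups every male except mouse 7 was below every female. The share of all genes with such an order of the sexes within groups was not computed. The log2 difference of mD3AKO over WT was 0.69 ± 0.22, made up of 0.52 ± 0.32 at rest and 0.86 ± 0.30 after exercise, and that of exercise was -0.06 ± 0.22.

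The genotypes were also set side by side within each sex. WT males had 61.3 to 96.2 CPM of *Sln* (median 78.8, n = 6) and mD3AKO males 107 to 293 CPM (median 139, n = 7), with no overlap, a log2 difference of 0.95 ± 0.21. WT females had 107 to 249 CPM (median 141, n = 6) and mD3AKO females 170 to 291 CPM (median 238, n = 6), which overlap, a log2 difference of 0.50 ± 0.22. *Sln* was the 1 member of 9 whose genotypes did not overlap in males, beside 0.253% of all 17389 genes, and it was called for genotype in neither sex, where 0.144% of all genes were called in males and 0.0805% in females. With sex as an additive term beside the groups, the log2 difference was 0.76 ± 0.16, and the count of members called for genotype went from 0 to 1 (*Sln*), as calls over all 16340 genes went from 44 to 72. Nothing is read from that count either. The satellite cell gene *Pax7* was the 1 gene of the cell type lists that passed for genotype (log2 fold change 0.48 ± 0.11, adjusted p = 0.0384, edgeR), and its part in the *Sln* values was not tested.

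Phospholamban was close to the limit of counting, with 38 to 166 reads per library. *Pln* ranged from 1.2 to 3.4 CPM in WT at rest, 1.5 to 3.8 in WT after exercise, 1.2 to 3.8 in mD3AKO at rest and 2.1 to 5.0 in mD3AKO after exercise. Its log2 difference for exercise was 0.39 ± 0.20, the largest among the members, with 0.15 ± 0.28 in WT and 0.64 ± 0.27 in mD3AKO mice. The gene shares 141 exon bases with *Cep85l* on the opposite strand, which had 65392 counts over all libraries against 1996 for *Pln*. It also shares 1644 exon bases with *Gm47644* on the opposite strand, which had 561 counts. Use of the strand in counting was not given in the sources used here, so reads of these genes may be mixed in this small value.

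Both calsequestrins, the calcium-binding proteins of the store, had similar levels in the 4 groups. *Casq1* ranged from 874 to 1054 CPM in WT at rest, 830 to 1025 in WT after exercise, 727 to 1098 in mD3AKO at rest and 778 to 1017 in mD3AKO after exercise, with log2 differences of -0.05 ± 0.064 for exercise and -0.01 ± 0.064 for genotype. *Casq2* was 325, 341 and 350 CPM in the WT males at rest and 467 and 528 CPM in the WT females at rest. It ranged from 296 to 478 CPM in WT after exercise (median 359), 324 to 540 in mD3AKO at rest (median 479) and 318 to 541 in mD3AKO after exercise (median 423). Its log2 differences were -0.09 ± 0.11 for exercise and 0.16 ± 0.11 for genotype. For *Casq2* too every male except mouse 7 was below every female of its own group, again without a share over all genes.

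In the release machinery the larger exercise difference was that of *Ryr1*. *Ryr1*, the channel through which calcium leaves the store, was 3129 to 3620 CPM in WT at rest (median 3412) and 3475 to 4025 CPM in WT after exercise (median 3933). In mD3AKO mice it was 2379 to 3753 CPM at rest (median 3363) and 2776 to 4555 CPM after exercise (median 4045). All 7 exercised WT mice were above the median of the rested ones, yet the ranges overlapped. The log2 difference for exercise was 0.19 ± 0.079, with 0.17 ± 0.12 in WT and 0.21 ± 0.11 in mD3AKO mice. By sex, males had 2379 to 3707 CPM at rest (median 3341, n = 7) and 3866 to 4242 CPM after exercise (median 3945, n = 6), with no overlap, a log2 difference of 0.30 ± 0.11. Females had 2884 to 3753 CPM at rest (median 3514, n = 5) and 2776 to 4555 CPM after exercise (median 3571, n = 7), which overlap, a log2 difference of 0.07 ± 0.12. *Ryr1* was the 1 member of 9 whose ranges were apart for exercise in males, beside 3.42% of all 17389 genes, and it was called in neither sex, where 6.41% of all genes were called in males and 3.5% in females. Its sex by exercise term was 0.24 ± 0.16 and was not called. *Cacna1s*, the pore and voltage sensor of the L-type channel, was 870 to 977, 807 to 1081, 703 to 918 and 726 to 1011 CPM in WT at rest, WT after exercise, mD3AKO at rest and mD3AKO after exercise. Its log2 differences were 0.08 ± 0.062 for exercise and -0.11 ± 0.061 for genotype.

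*Pvalb* varied most between mice. It was 187, 243, 398, 539 and 626 CPM in WT mice at rest, 213 to 621 in WT after exercise, 66.8 to 669 in mD3AKO at rest and 198 to 504 in mD3AKO after exercise, a 10.0-fold range over the 25 mice against 1.51-fold for *Casq1*. The log2 differences of 0.07 ± 0.30 for exercise and -0.31 ± 0.29 for genotype lie within that spread. The genes whose log2 CPM followed it most closely were *Mybpc2* (Pearson's r 0.92), *Actn3* (0.91) and *Myh4* (0.90), which encode proteins of fast fibers. *Myh4*, the myosin of IIB fibers, itself ranged from 18.7 to 5208 CPM, with the 2 lowest *Pvalb* values in the 2 mice lowest in *Myh4*. These were mouse 7 (66.8 CPM of *Pvalb*) and mouse 15 (97.1 CPM), and the next lowest value was 187 CPM. Mouse 15 is the library with the fewest counts and 31.6% of them in mitochondrial ribosomal RNA. These r values run over 25 mice and are given without a test, as the genes were picked for them.

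**Figure D3:**
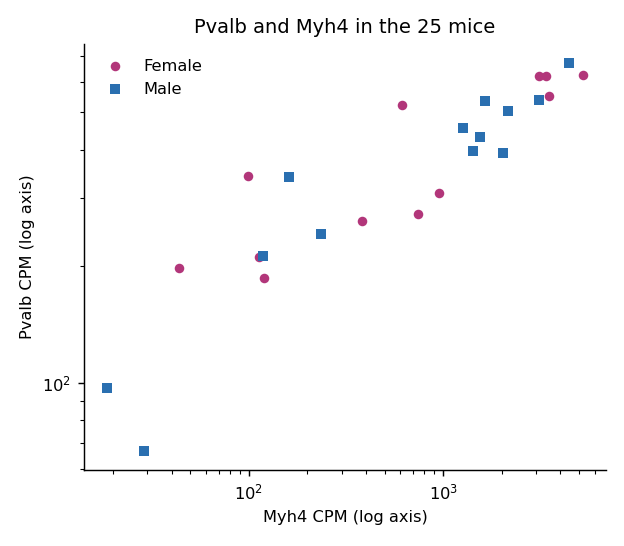
*Pvalb* against *Myh4* in CPM (both log axes), 1 point per mouse, with females as circles and males as squares. *Pvalb* goes from 66.8 to 669 CPM along a range of 18.7 to 5208 CPM of *Myh4*, and the 2 lowest mice in both genes are males (mice 7 and 15).

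*Sln* and *Casq2* were lower in males, and these 2 of 9 members passed the test (edgeR, 8 groups of sex, genotype and exercise), where 8.15% of 17389 genes passed and 2.79% were lower in males. At an unadjusted p under 0.05 there were 5 members, beside 22.4% of all genes. *Sln* had 194 ± 62.5 CPM in females (SD, n = 12) and 120 ± 60.8 CPM in males (n = 13), with ranges of 107 to 291 (median 189) and 61.3 to 293 (median 107). The log2 difference of males over females was -0.81 ± 0.15 with an adjusted p of 0.0016 (edgeR), and 1 of 13 males, mouse 7, lay above the female median. *Casq2* had 477 ± 51.3 CPM in females and 353 ± 64.1 CPM in males, with ranges of 359 to 541 (median 481) and 296 to 540 (median 339). Its log2 difference was -0.46 ± 0.069 with an adjusted p of 1.7e-04 (edgeR), and mouse 7 was again the 1 male above the female median. Both calls held in all 25 fits that left out 1 mouse.

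The slow pump *Atp2a2* lay just outside the threshold, with 7846 ± 1156 CPM in females, 6631 ± 685 CPM in males and a log2 difference of -0.24 ± 0.077 (adjusted p = 0.0550, edgeR). DESeq2 called it (adjusted p = 0.0109), and so did 9 of the 25 fits that left out 1 mouse (mice 5, 7, 8, 9, 12, 21, 22, 24 and 25), with adjusted p from 0.0157 to 0.117 over the 25. *Casq1* (0.14 ± 0.062, adjusted p = 0.178) and *Cacna1s* (0.14 ± 0.059, adjusted p = 0.151) were not called, and neither were *Pln* at 0.26 ± 0.18, *Atp2a1* at 0.05 ± 0.090, *Ryr1* at 0.04 ± 0.081 and *Pvalb* at 0.04 ± 0.30. No member passed for a sex by exercise or sex by genotype term (0 of 9 each in edgeR, also at an unadjusted p under 0.05), where 0.046% and 0% of all genes were called and 3.28% and 1.81% had an unadjusted p under 0.05. The sex by genotype term of *Sln* was 0.44 ± 0.30, so the larger genotype difference in males was not separated from that in females. Mice 1 to 6 and 20 to 25 were the females and 7 to 19 the males, and the order of the numbers and sex cannot be told apart. Taken one at a time against the males, the female blocks gave -0.89 (adjusted p = 0.0118) and -0.70 (0.0258) for *Sln*, -0.54 (0.0032) and -0.38 (0.0207) for *Casq2*, and -0.40 (0.0075) and -0.10 (0.429) for *Atp2a2* with edgeR.

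Fiber-type genes moved with sex as well. Of the slow fiber list 5 of 8 genes were lower in males and 0 higher, among them *Myh7* (log2 fold change -0.49 ± 0.077, adjusted p = 3.2e-04, edgeR), and of the fast fiber list 6 of 10 were higher and 0 lower, among them *Myh1* (0.50 ± 0.15, 0.0441) and *Myh2* (0.31 ± 0.082, 0.0220) but not *Myh4* (0.84 ± 0.70, 0.529). By mean CPM *Myh4* was 1518 ± 1772 (SD) in females and 1395 ± 1336 in males, so its fitted difference and its means point opposite ways. *Actn3* was also lower in males by mean (326 ± 189 against 427 ± 217 CPM), and the other genes of the fast list had higher means in males. The slow list summed to 28722 to 45195 CPM in females and 23495 to 30512 CPM in males, the fast list to 20808 to 34504 and 29656 to 43374 CPM, and no gene of either list was at 0 in any library. The log2 ratio of *Myh1*, *Myh2* and *Myh4* together to *Myh7* was 0.19 ± 0.35 in females and 0.98 ± 0.26 in males, a difference of 0.79 (2-sided permutation test, p = 1e-05, the smallest that 100000 resamples can give). With this ratio as a covariate, an alternative chosen after seeing the data, 0 members were called for sex. *Sln* then differed by -0.20 ± 0.27 and *Casq2* by -0.33 ± 0.14, and over all genes the calls went from 1418 to 26. *Pax7* was lower in males too, and the heart, smooth muscle, endothelium, fibroblast, immune, adipocyte, Schwann cell and blood lists had 0 genes called for sex.

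**Figure D4:**
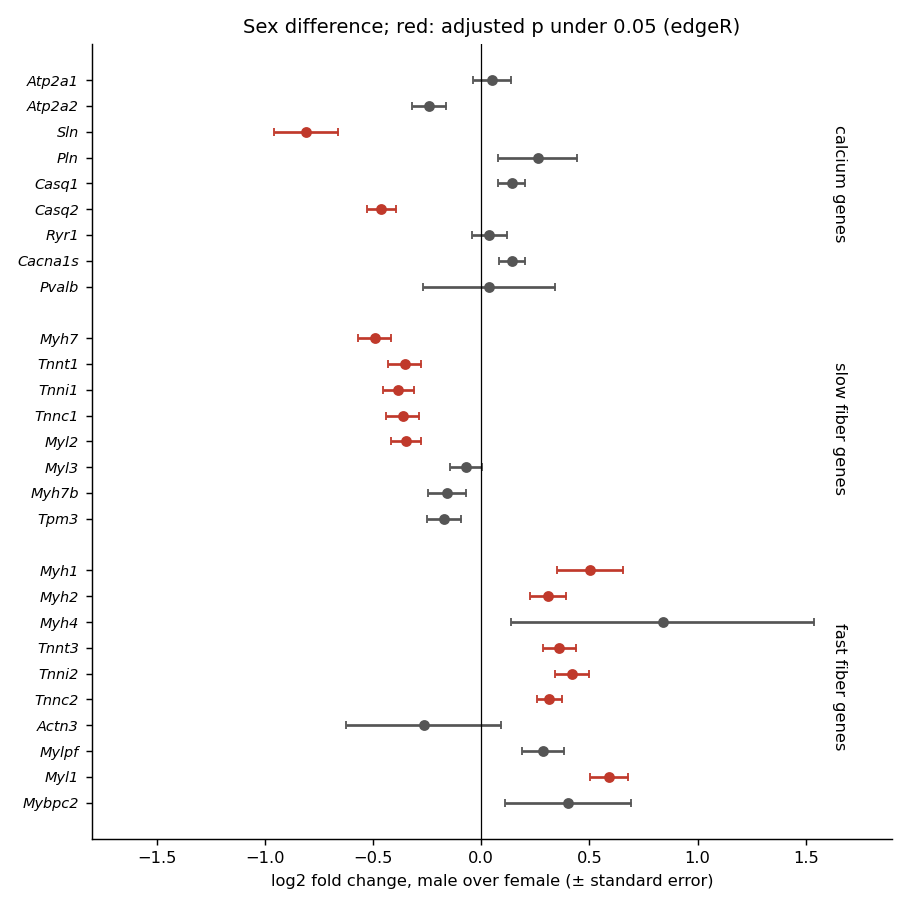
Log2 fold change of males over females with its SE for the 9 members, 8 slow fiber genes and 10 fast fiber genes, in red where the adjusted p was under 0.05 (edgeR). *Sln* at -0.81 and *Casq2* at -0.46 lie on the side of *Myh7* at -0.49.

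Many genes followed the fast to slow myosin ratio over the 25 mice. In an edgeR fit across all genes with the ratio as its 1 term, an alternative chosen after seeing the data, 4 of the 9 members passed (*Casq2*, *Atp2a2*, *Sln* and *Casq1*, with adjusted p of 6.7e-04, 0.0016, 0.0068 and 0.0264), where 6.28% of the 16340 genes did. At an unadjusted p under 0.05 there were 5 members, beside 19.8% of all genes. In 2-sided permutation tests adjusted over these 9 relations alone, *Cacna1s* passed as well. Pearson's r was -0.76 for *Casq2* (Spearman's rho -0.72, adjusted permutation p = 9e-05), -0.75 for *Atp2a2* (rho -0.67, 9e-05), -0.68 for *Sln* (rho -0.65, 4.8e-04), 0.64 for *Casq1* (rho 0.54, 0.0015) and 0.52 for *Cacna1s* (rho 0.49, 0.0143). *Casq2*, *Atp2a2* and *Sln* thus went down along the ratio, and *Casq1* and *Cacna1s* went up. The relation was not found for *Atp2a1* (r 0.36, rho 0.36, adjusted permutation p = 0.116), *Pvalb* (r 0.22, rho 0.22, 0.369), *Ryr1* (r 0.19, rho 0.13, 0.406) or *Pln* (r 0.07, rho 0.14, 0.748).

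The ratio and sex run together, and within neither sex did any member pass in the permutation tests or in the edgeR fit, where 0% of all genes passed in either sex. At an unadjusted p under 0.05 the edgeR fit had 6 members in females, beside 6.35% of all genes, and 0 in males, beside 3.28%. *Pvalb* was among the 6. Its log2 change per unit of the log2 ratio was 1.20 ± 0.46 (SE) in females and 1.45 ± 0.83 in males. Over all 25 mice it was 0.38 ± 0.30. In the 12 females r was -0.65 for *Atp2a2*, -0.62 for *Casq2*, -0.60 for *Sln*, 0.66 for *Casq1* and 0.60 for *Atp2a1* (adjusted permutation p = 0.0722 for each), and in the 13 males it was -0.50, -0.21, -0.33, 0.37 and 0.47 (adjusted permutation p from 0.321 to 0.544). For *Cacna1s* r was 0.43 in females (adjusted permutation p = 0.189) and 0.35 in males (0.347). Without mice 3 and 2, the 2 farthest from the median ratio, r was -0.72 for *Casq2*, -0.60 for *Atp2a2* and -0.60 for *Sln*, which passed, and 0.41 for *Casq1* and 0.42 for *Cacna1s*, which did not (adjusted permutation p = 0.0952 for both), so these calls depend on those mice while r kept its sign. In the permutation tests *Casq1* passed each time 1 of the 25 mice was left out (r 0.54 to 0.74). The edgeR fit lost *Casq1* without mouse 2 alone and without mouse 3 alone. Without mice 3 and 2 the edgeR fit called 2 members (*Sln* and *Casq2*) and 5.96% of all genes. In the permutation tests *Cacna1s* was also lost without mouse 3 alone (r 0.42), and *Atp2a1* passed without mouse 7 (r 0.50).

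**Figure D5:**
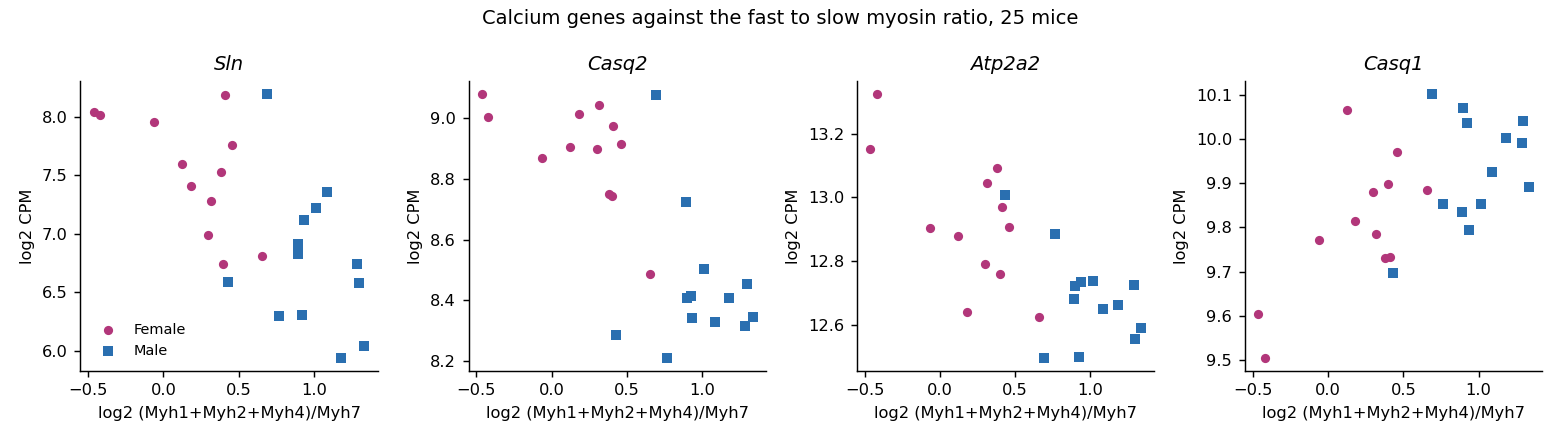
Log2 CPM of *Sln*, *Casq2*, *Atp2a2* and *Casq1* against the log2 ratio of *Myh1*, *Myh2* and *Myh4* to *Myh7*, 1 point per mouse, with females as circles and males as squares. The first 3 fall along the ratio (r -0.68, -0.76 and -0.75) and *Casq1* rises (r 0.64), while females and males lie mostly at opposite ends.

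Among themselves some members varied together over the 25 mice and others did not. The highest Pearson's r of the 36 pairs were 0.84 for *Atp2a1* with *Ryr1*, 0.80 for *Atp2a1* with *Cacna1s*, 0.79 for *Sln* with *Casq2* and 0.77 for *Ryr1* with *Cacna1s*, and the lowest were -0.78 for *Atp2a2* with *Casq1* and -0.71 for *Casq2* with *Cacna1s*. The highest r of *Casq1* with any other member was 0.085 (*Pvalb*), and that of *Pln* was 0.10 (*Cacna1s*). All pairs share the libraries and their scaling, and no test was made. The genes nearest to each member by r were *Eif4g3* (0.88), *Tsc2* and *Trap1* for *Atp2a1*, *Ift81* (0.87), *Tsga10* and the slow myosin *Myh7* (0.85) for *Atp2a2*, *Igsf1* (0.85), the imprinted *H19* (0.80) and *Ripor2* for *Sln*, and *Hnrnpdl* (0.70), *Dnajc25* and *Vps54* for *Pln*. They were the fast light chains *Mylpf* (0.83) and *Myl1* (0.74) and *Ifi35* for *Casq1*, *Npr3* (0.84), *Fam217b* and *Mesd* for *Casq2*, *Sptb* (0.90) and *Dst* for *Ryr1*, and *Synm* (0.84), the glycolytic gene *Pfkm* (0.84) and *Sptb* (0.84) for *Cacna1s*.

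A list of 69 other calcium-handling genes, put together by function, was tested in the same fits, and 67 were matched and tested. After exercise 1 rose and 1 fell, against 10.4% of all genes called. *Rcan1*, an inhibitor of calcineurin and a known target of it, rose from 227 ± 54.0 CPM (SD, n = 12) to 379 ± 153 CPM (n = 13), with a log2 fold change of 0.74 ± 0.19 and an adjusted p of 0.0081 (edgeR). These values pool both sexes and genotypes. Within males 1 of the 67 was higher and 0 lower, beside 6.41% of all genes called. Within females 0 were called, beside 3.5%. Within mD3AKO mice 1 was higher and 0 lower, and within WT mice 0 were called. The shares of all genes called within each genotype are not given here, so the counts by genotype are not compared. Cell type markers also moved after exercise, with 2 of 4 endothelial genes (*Cdh5* and *Kdr*) and 2 of 4 satellite cell genes (*Pax7* and *Myf5*) lower, 1 of 4 smooth muscle genes (*Cnn1*) higher and the other lists at 0, and their part in these results was not tested. The endothelial list summed to 308 to 427 CPM per mouse at rest and 261 to 350 CPM after exercise, and the satellite cell list to 31.3 to 38.1 and 26.6 to 32.9 CPM. For genotype and for the interaction 0 of the 67 were called by edgeR or DESeq2, where edgeR called 0.269% and 0% of all genes. At an unadjusted p under 0.05 edgeR had 4 and 3 of the 67, beside 6.23% and 2.47% of all genes.

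By sex 12 of the 67 were called, 9 higher and 3 lower in males, where 5.36% and 2.79% of all genes were. The 9 became 5 without mouse 3, 13, 15, 20, 21, 24 or 25, as the share of all genes higher in males fell to between 2.85% and 4.41%. They became 1 when only females 1 to 6 were set against the males, where 1.72% of all genes were higher. Among the small pump regulators *Strit1*, whose peptide DWORF counters pump inhibition, was lower in males (22.1 ± 2.90 against 28.3 ± 5.58 CPM, log2 fold change -0.37 ± 0.087, adjusted p = 0.0110, edgeR). *Ryr3*, a minor release channel in adult muscle, was lower as well (1.95 ± 0.493 against 3.62 ± 1.25 CPM, -0.88 ± 0.17, adjusted p = 0.0025, edgeR). *S100a1*, a calcium sensor that binds the ryanodine receptor and SERCA, was higher in males (122 ± 14.9 against 90.0 ± 13.7 CPM, 0.47 ± 0.083, adjusted p = 0.0012, edgeR). Smaller differences in the same direction were called for calmodulin *Calm2* (0.17 ± 0.052), the store sensor *Stim1* (0.15 ± 0.042), the plasma membrane pump *Atp2b3* (0.32 ± 0.096), the mitochondrial uptake gene *Mcur1* (0.19 ± 0.045), and the calcineurin genes *Ppp3cc* (0.25 ± 0.050) and *Rcan2* (0.23 ± 0.072). None of the 12 triad proteins and 3 further channel subunits was called for sex, exercise or genotype, including those with the highest levels, *Srl* (1850 ± 109 CPM in females, 2006 ± 138 in males) and *Cacna2d1* (366 ± 28.5 and 377 ± 28.8 CPM). With the fast to slow ratio as a covariate 0 of the 67 were called for sex, where 0.15% of all genes were.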

How the data were processed

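*Soleus* RNA of 25 mice had been depleted of ribosomal RNA and sequenced as stranded 75-base pairs. The deposited values are raw counts per gene, which the authors made on mm10 with GENCODE release M15, and the submitters' processing notes name FastQC 0.11.5, STAR 2.5.3a and featureCounts 1.5.3. Gene symbols came from GENCODE M21 by gene ID (52403 of 52636 matched), coordinates from the count table. The counts were fitted here with edgeR 4.0.16 (R 4.3.3; TMM, filterByExpr with a minimum count of 10, glmQLFit and glmQLFTest) as 4 groups (16340 genes) or, for sex, 8 groups (17389 genes). The Benjamini-Hochberg adjusted p threshold was 0.05, and the SE is the log2 fold change over the root of F. DESeq2 1.42.0 was an alternative, with other normalization, filters, sex terms and each mouse left out. The code was tested on simulated data. CPM are TMM-scaled, and log2 CPM for correlations had a prior count of 2. Depth was 22671457 to 37431801 counts; of 67 replicate pairs 0 were identical. Members, lists (other calcium genes; fiber, heart, smooth muscle, endothelium, fibroblast, immune, adipocyte, satellite cell, Schwann cell and blood markers) and tests were chosen with earlier results of these data known. Named were all members, *Dnmt3a*, the main myosins, up to 3 called calcium genes with the largest change per subgroup or else the highest one, and the 3 genes nearest to each member; markers called for exercise or genotype were added after their values were seen. Of the calcium list, 2 symbols had no match. Methylation data were not analysed here, and a few genes that this rule would name are not reported here.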

Additional observations from a re-analysis of the deposited data

Results flagged for a closer look

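In mD3AKO mice at rest, the highest *Atp2a2* value (10257 CPM, mouse 2, a female) stood apart from the other 6 by more than Dixon's 95% limit allows. 40 groups of values were examined in this way and 1 was beyond the limit, where chance gives about 1 in 20. Mouse 2 also had the second lowest log2 fast to slow myosin ratio, at -0.42.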

How the results depend on the processing

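No paired analysis was possible because each mouse number belongs to 1 library and none is shared between groups. For genotype, 1 member (*Sln*) was called with sex as an additive term, 1 with blocks of mouse numbers and 1 with the fast to slow myosin ratio as a covariate (added after seeing the data), against 0 otherwise, where those settings called 72, 97 and 67 of all 16340 genes, against 44, and DESeq2 called 81. Its log2 difference was 0.61 to 0.88 when single mice were left out. For exercise, leaving out single mice gave 0 to 1 members, the 1 being *Ryr1* without mouse 3. Since the members were chosen with the exercise and genotype values known, nothing is read from these counts. For sex it gave 2 to 3 members, as 4.58% to 10.1% of all genes were called, and the ratio covariate gave 0, with 0.15% of all genes. Of the other calcium genes, blocks gave 2 lower after exercise, males only 0 lower, and females only 0 higher and 0 lower. These fits called 12.5%, 6.01% and 3.03% of all genes for exercise. Leaving out single mice gave 1 to 2 in each direction (2 higher without mouse 1, 2 lower without mouse 20 or mouse 23). In those fits 9.32% to 11.1% of all genes were called. For sex, females 1 to 6 against males gave 1 higher, the ratio covariate 0 higher and 0 lower, and leaving out single mice 5 to 9 higher and 2 to 4 lower, with 5 higher without mouse 3, 13, 15, 20, 21, 24 or 25. Ranked by CPM without length, 3 members kept their rank, and *Atp2a2* came before *Atp2a1*. In the permutation tests of the myosin ratio, adjusted over the 9 relations alone, 0 passed in males only and 0 in females only. Without the 2 farthest mice 3 passed, and 4 to 6 when single mice were left out. In the edgeR fit across all genes, added after seeing the data, 4 passed. Males only, females only and the fit without the 2 farthest mice gave 0, 0 and 2 members, where 0%, 0% and 5.96% of all genes passed. Leaving out single mice gave 3 to 5 members, where 4.36% to 6.94% of all genes passed. There were 3 without mouse 2 or mouse 3, with *Casq1* lost, and 5 without mouse 7.

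Over all settings 4 of 9 members took both signs for exercise (*Atp2a2* -0.061 to 0.17, *Casq1* -0.092 to 0.014, *Pvalb* -0.068 to 0.19 and *Sln* -0.19 to 0.13), 5 for genotype (*Atp2a1* -0.072 to 0.024, *Atp2a2* -0.023 to 0.093, *Casq1* -0.025 to 0.019, *Pvalb* -0.64 to 0.030 and *Ryr1* -0.096 to 0.011) and 8 for the interaction. Some sex differences and r values changed sign as well. With females 1 to 6 against males the sex difference was -0.015 for *Atp2a1* and -0.023 for *Ryr1*. With the ratio as a covariate it was -0.27 for *Atp2a1*, 0.038 for *Atp2a2*, -0.098 for *Casq1*, -0.12 for *Ryr1*, -0.030 for *Cacna1s* and -1.05 for *Pvalb*. When single mice were left out it ran from -0.00062 to 0.10 for *Atp2a1*, -0.12 to 0.32 for *Pvalb* and -0.011 to 0.097 for *Ryr1*. The r of *Pln* was -0.34 in males, -0.11 in females and -0.11 to 0.31 with single mice left out. The cause was not tested. Among the members, depth limits *Pln* most.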
